A study of Mus musculus with 24 samples.

Results

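The miR-199 and miR-214 family was followed through the subcutaneous fat of female mice. The members are miR-199a-5p (MIMAT0000229), miR-199a-3p (MIMAT0000230), miR-199b-5p (MIMAT0000672) and miR-214-3p (MIMAT0000661), which were taken by these identifiers with the reads of all genomic copies summed. They make up 4 of the 1907 mature miRNAs counted, and 6 of the 2045 loci. All 4 passed the filter on low counts. The animals were wild type or carried a genotype labelled KinaseDead, and the sources used here do not give the inactive kinase. Mice of both genotypes were either sedentary or trained, by treadmill runs of 1 hour on 5 days a week over 6.5 weeks, at a speed of 16 m/min, and with a running wheel always at hand. All were fed chow, and no label used here states the age, the strain or the exact depot. Each of the 4 groups had 6 small RNA libraries, 24 in all. Whether each library stands for its own animal is not stated, and p-values then measure only the spread between libraries, which may be technical.

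A miRNA is cut from a hairpin in an RNA precursor, and either arm of the hairpin can be loaded onto an Argonaute protein, where its seed pairs with target mRNAs. The miR-199 and miR-214 genes are known from mesenchymal cells, such as fibroblasts, chondrocytes and smooth muscle, and one pair of them lies in the long noncoding RNA Dnm3os, which the mesenchymal factor Twist1 is known to switch on. miR-199a-5p is known for lowering caveolin-1 in fibroblasts, miR-199a-3p for targeting Mtor and Met, and miR-214-3p for targeting Ezh2.

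The sequences of the arms come first, because the arms differ in their seeds and the copies do not. The mature sequences are from RefSeq on GRCm38.p6, written 5′ to 3′ with the seed (bases 2 to 8) in capitals.
miR-199a-5p: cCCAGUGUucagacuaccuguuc
miR-199a-3p: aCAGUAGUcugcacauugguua
miR-214-3p: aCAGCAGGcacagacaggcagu
miR-214-5p: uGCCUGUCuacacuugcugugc
The member miR-199b-5p is given by name only. The 2 arms of miR-199a have different seeds, so they are different regulators made from the same hairpin. miR-199b-3p, which is no member, has the same sequence as miR-199a-3p over its whole length. Among the mature miRNAs of the same RefSeq table, miR-214-3p shares its seed with miR-761, which had 0 reads in all 24 libraries, and miR-199a-5p shares its seed with no other entry there.

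Mir199a-2 and Mir214 lie on the plus strand of chromosome 1 (mm10), with 5444 bases between the hairpins. Both lie in an exon of Dnm3os (chr1:162217623-162225550) and, on the opposite strand, in an intron of Dnm3. Mir199a-1 lies on the minus strand of chromosome 9 (chr9:21496495-21496564), opposite an intron of Dnm2, and Mir199b on the plus strand of chromosome 2 (chr2:32318460-32318569), opposite an intron of Dnm1. The hairpins that hold 3 of the members follow, with the mature arms in capitals, to show that the same arms come out of different precursors.
Mir199a-2 (chr1:162217814-162217923, plus strand): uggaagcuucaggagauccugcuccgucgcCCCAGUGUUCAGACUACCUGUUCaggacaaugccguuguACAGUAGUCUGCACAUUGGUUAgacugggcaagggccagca
Mir199a-1 (chr9:21496495-21496564, minus strand): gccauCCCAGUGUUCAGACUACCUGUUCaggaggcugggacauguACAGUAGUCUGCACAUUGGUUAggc
Mir214 (chr1:162223368-162223477, plus strand): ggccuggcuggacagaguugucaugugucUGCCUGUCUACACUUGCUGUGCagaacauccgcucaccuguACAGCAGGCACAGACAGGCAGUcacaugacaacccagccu

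Reads were divided among the copies almost evenly. Of the miR-199a-5p reads, 49.8% were counted at Mir199a-2 and 50.2% at Mir199a-1. The 3p arm has 3 copies, and Mir199a-2 held a mean of 34.8% of its reads, Mir199b 34.7% and Mir199a-1 30.5% (SD 0.277, 0.295 and 0.487 percentage points, n = 24). Mir199a-1 had the lowest share in 24 of 24 libraries. Identical sequences cannot be assigned to a copy by their reads, so the level of miR-199a-3p and that of miR-199b-3p are shared values. No other counted locus overlaps any of these.

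Library totals lay between 1.60 and 23.6 M reads, so that 3 reads stand for 0.127 to 1.87 counts per 1000000 reads (CPM), far below every value of a member. A lymphocyte miRNA, miR-150-5p, exceeded 2000 CPM in 7 of the 24 libraries. They are called lymphocyte-rich here, and number 1 in sedentary wild type, 2 in trained wild type, 2 in sedentary kinase dead and 2 in trained kinase dead. The summed level of the 4 lymphocyte miRNAs listed (miR-150-5p, both arms of miR-142a and miR-155-5p) ranged from 1588.9 to 20964 CPM in sedentary wild type, 1464 to 19932 in trained wild type, 1731 to 19716 in sedentary kinase dead and 1363 to 19929 in trained kinase dead. Because the libraries come from whole tissue, fewer stromal cells and less of a miRNA per cell cannot be told apart, and no mRNA was available here to check the stromal label. Of 21 other miRNAs listed as known from fibroblasts and mesenchyme, 21 passed the filter, with a summed level between 230702 and 428574 CPM per library, and none of them was at 0.

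The most abundant member was miR-199a-3p, followed by miR-199a-5p, miR-199b-5p and miR-214-3p. Over the 24 libraries miR-199a-3p stood at 12788 ± 2240 CPM (SD), rank 19 of all mature miRNAs, and miR-199a-5p at 6127 ± 1165 CPM, rank 35. miR-199b-5p stood at 2655 ± 623 CPM, rank 47, and miR-214-3p at 627 ± 143 CPM, rank 99. In that order the ranges of neighbours did not overlap, with the exception of the first step, where miR-199a-3p began at 8341 CPM and miR-199a-5p reached 8404 CPM. Of the partner arms, miR-199b-3p stood at 6808 ± 1186 CPM, rank 32, and miR-214-5p at 127 ± 19.6 CPM, rank 185. Mature miRNAs are all of nearly the same length, but adapter ligation is known to favour some ends, so the order of levels is one of reads and not of molecules. The 4 members together stood at 22197 ± 3608 CPM per library.

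Training did not move any member past the threshold in either genotype, where 0% of all 582 miRNAs tested were called. The 5p arm of miR-199a had the largest difference of the members in kinase dead mice and on average over genotypes. In wild type the largest was that of miR-214-3p, at -0.24. miR-199a-5p had 4385, 5912 and 6370 CPM (lowest, median, highest of 6 libraries) in sedentary wild type and 4400, 6941 and 8363 CPM in trained wild type. In kinase dead mice it had 4840, 5499 and 6322 CPM in the sedentary group and 5192, 6603 and 8404 CPM in the trained group. The groups overlapped, although 4 of 6 trained wild type libraries and 3 of 6 trained kinase dead libraries lay above every sedentary library of their genotype. The fitted log2 difference was 0.19 (SE 0.15, adjusted p = 0.860, edgeR) in wild type and 0.27 (SE 0.15, adjusted p = 0.994, edgeR) in kinase dead. Leaving out 1 library at a time gave 0.08 to 0.28 in wild type, with 0.08 without trained replicate 6 and 0.11 without trained replicate 5. In kinase dead it gave 0.14 to 0.32, with 0.14 to 0.17 without sedentary replicate 2 or 3 or trained replicate 4 or 5.

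The 3p arm of the same hairpins had a smaller difference. miR-199a-3p had 8341, 13453 and 16057 CPM in sedentary and 10036, 12351 and 14544 CPM in trained wild type. Its values in kinase dead mice were 9035, 12766 and 15418 CPM when sedentary and 9371, 13400 and 16559 CPM when trained. All 4 groups overlapped, and the log2 difference with training was -0.09 in wild type and 0.10 in kinase dead (SE 0.16 in both).

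miR-199b-5p, the 5p arm of the third hairpin, had 1644, 2627 and 4207 CPM in sedentary and 1820, 2596 and 3261 CPM in trained wild type. Kinase dead mice had 1742, 2696 and 3138 CPM against 2041, 2551 and 3718 CPM. The log2 differences were -0.12 and 0.01 (SE 0.20 in both), and the groups overlapped. The level of miR-199b-5p spread over 2.56 times between its extreme libraries, both of which belong to sedentary wild type.

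miR-214-3p, which comes from the same Dnm3os transcript as Mir199a-2, had 441, 676 and 1006 CPM in sedentary and 463, 568.1 and 747 CPM in trained wild type. Among kinase dead libraries it had 463, 579 and 704 CPM if sedentary and 446, 638 and 840 CPM if trained. Its log2 difference with training was -0.24 in wild type (SE 0.19, adjusted p = 0.860, edgeR) and 0.08 in kinase dead (SE 0.19, adjusted p = 0.994, edgeR), and the groups overlapped in both genotypes.

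**Figure D1:**
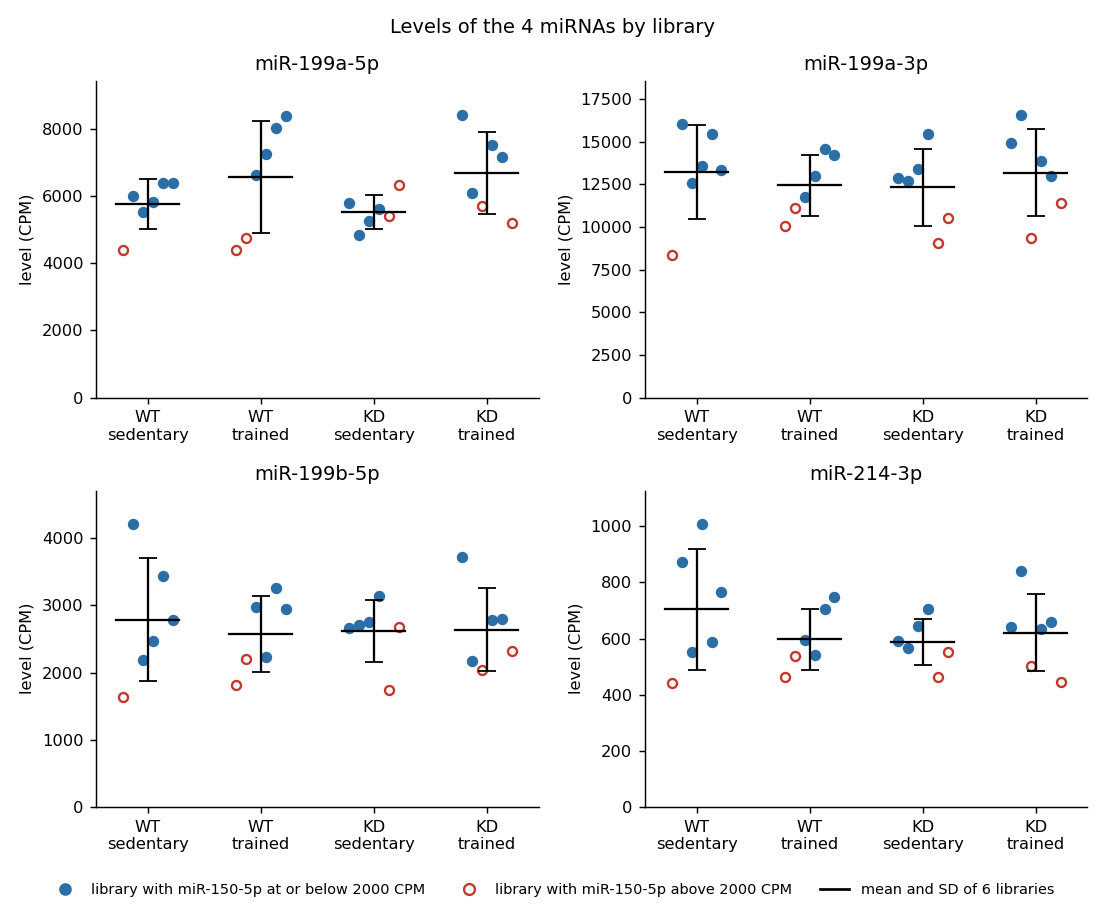
Level in CPM (vertical axes, from 0) of each of the 4 miRNAs in the 6 libraries of each group (WT, wild type; KD, kinase dead), with the mean and SD in black; open red points are the 7 libraries with miR-150-5p above 2000 CPM. miR-199a-5p reached 8363 CPM in trained wild type and 8404 CPM in trained kinase dead, and the open points of miR-199a-3p lie below all filled ones.

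None of the 4 members passed an adjusted p of 0.05 in any of the 6 comparisons, and neither did any of the 582 mature miRNAs tested (0% called in each comparison; edgeR, quasi-likelihood test, p adjusted by Benjamini-Hochberg). At an unadjusted p under 0.05 there were 31 miRNAs for training in wild type (5.33%), 14 in kinase dead (2.41%) and 36 for training averaged over genotypes (6.19%). The interaction had 13 (2.23%), genotype in sedentary mice 7 (1.2%) and genotype in trained mice 4 (0.687%). DESeq2 called 0 as well in each comparison, with 38, 15, 38, 10, 6 and 9 at an unadjusted p under 0.05 in the same order. One member stood among the 36 for averaged training: miR-199a-5p, with a log2 difference of 0.23 (SE 0.11, 95% interval 0.01 to 0.45), an unadjusted p of 0.0424 and an adjusted p of 0.748 in edgeR. Its averaged difference ran from 0.13 to 0.26 when 1 library was left out, with 0.13 without trained wild type replicate 6 and 0.15 without trained wild type replicate 5. For the other members averaged training gave 0.01 for miR-199a-3p, -0.05 for miR-199b-5p and -0.08 for miR-214-3p.

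The kinase dead genotype gave no call among the members either. In sedentary mice the log2 differences of kinase dead against wild type were -0.06 for miR-199a-5p, -0.10 for miR-199a-3p, -0.09 for miR-199b-5p and -0.26 for miR-214-3p. In trained mice they were 0.02, 0.08, 0.04 and 0.05 in the same order. The interaction, which asks whether training acted differently in the genotypes, gave 0.08, 0.19, 0.13 and 0.32. Its widest interval, that of miR-199b-5p, ran from -0.46 to 0.72. Within groups the SD of log2 CPM was 0.27 for miR-199a-5p, 0.28 for miR-199a-3p, 0.36 for miR-199b-5p and 0.32 for miR-214-3p, against a median of 0.33 over the 205 miRNAs of at least 100 CPM.

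**Figure D2:**
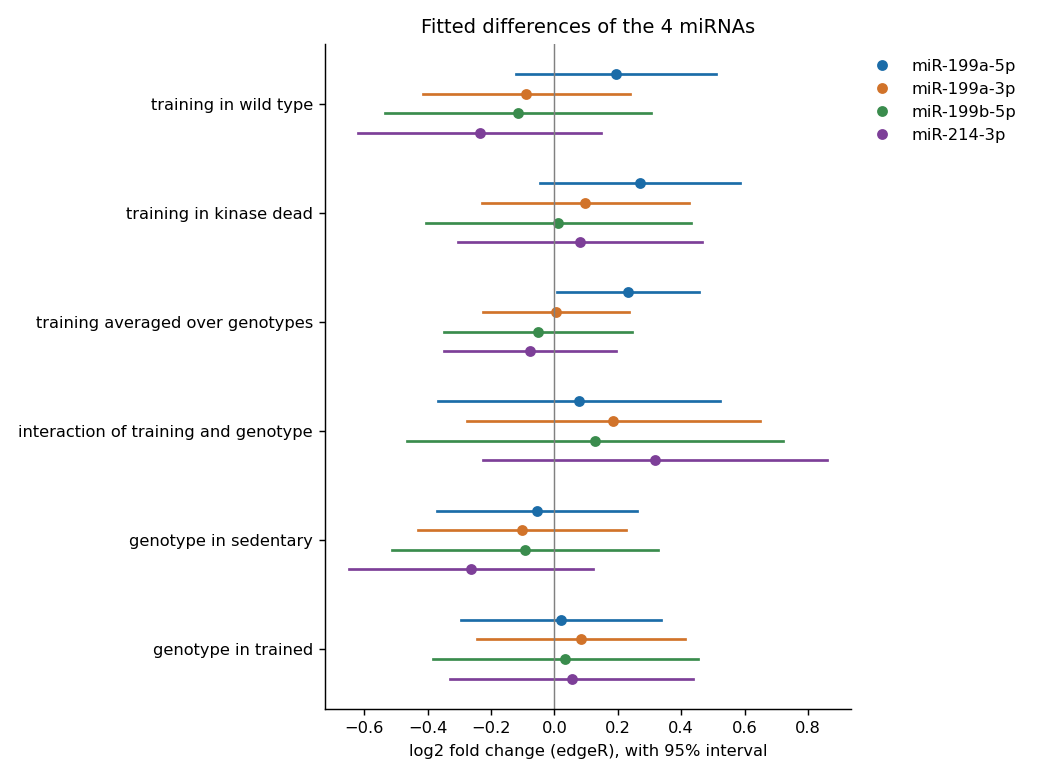
Fitted log2 fold change (horizontal axis) of each of the 4 miRNAs in the 6 comparisons, with lines for the 95% interval from edgeR. Of the 24 intervals the one that lies above 0 is that of miR-199a-5p for training averaged over genotypes (0.01 to 0.45), before adjustment over the 582 miRNAs.

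The lymphocyte-rich libraries had the lower median of every member (5192 against 6368 CPM for miR-199a-5p, 10036 against 13558 for miR-199a-3p, 2041 against 2786 for miR-199b-5p and 463 against 644 for miR-214-3p). miR-199a-3p ranged from 8341 to 11413 CPM among the 7 and from 11742 to 16559 CPM among the other 17, with no overlap. Of the 582 miRNAs, 7 (1.2%) were lower in all 7 libraries than in every other. The other members overlapped: miR-199a-5p had 4385 to 6322 against 4840 to 8404 CPM, miR-199b-5p 1644 to 2680 against 2171 to 4207 CPM, and miR-214-3p 441 to 551 against 541 to 1006 CPM. With the lymphocyte score (the mean log2 CPM of the 4 lymphocyte miRNAs) as a covariate, the averaged training difference of miR-199a-5p was 0.20 (SE 0.09, adjusted p = 0.352, edgeR).

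Without the 7 libraries, miR-199a-5p separated sedentary from trained mice in both genotypes. This comparison was made after the values had been seen. In wild type the 5 sedentary libraries had 5518 to 6370 CPM and the 4 trained ones 6631 to 8363 CPM. In kinase dead mice the 4 sedentary libraries had 4840 to 5774 CPM and the 4 trained ones 6067 to 8404 CPM. Trained libraries lay above all sedentary ones for 8 of the 582 miRNAs in wild type (1.37%), for 11 in kinase dead (1.89%) and for 1 in both genotypes (0.172%), and that 1 was miR-199a-5p. These shares cover the direction of miR-199a-5p alone, and miRNAs with trained libraries below all sedentary ones are not counted in them. The other 3 members overlapped in both genotypes. In the fit without these libraries the averaged log2 difference of miR-199a-5p was 0.39 (SE 0.09), with an adjusted p of 0.105 in edgeR, and 0 of 586 miRNAs passed the threshold, with 80 at an unadjusted p under 0.05.

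The trained groups also had the larger libraries on average. The mean total was 6.59 M reads in sedentary and 9.95 M in trained wild type, and 6.71 and 10.8 M in kinase dead. Among the 17 libraries that were not lymphocyte-rich, the means were 7.11 and 11.1 M in wild type and 5.46 and 12.7 M in kinase dead. Their medians were 3.47 and 11.2 M in wild type and 5.25 and 12.5 M in kinase dead. With the log2 total as a covariate in the edgeR fit of all libraries, the averaged difference of miR-199a-5p was 0.14 (SE 0.11, adjusted p = 0.995). In the 17 libraries a least squares fit on log2 CPM gave 0.38 without and 0.32 with the total.

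The arm ratio of miR-199a, which compares the reads counted for both arms within a library and so needs no scaling between libraries, was higher on average in trained mice. It is not strictly a ratio of the same hairpins. Its 3p count can include reads from Mir199b, whose 3p arm has the same sequence, while its 5p count comes from the Mir199a hairpins. In sedentary wild type the ratio of 5p to 3p reads was 0.374, 0.434 and 0.526 (lowest, median, highest) and in trained wild type 0.426, 0.555 and 0.587. Kinase dead mice had 0.364, 0.420 and 0.602 in the sedentary and 0.366, 0.547 and 0.609 in the trained group. The groups overlapped, with 5 of 6 trained libraries above the sedentary median in each genotype. The mean went from 0.443 ± 0.0528 to 0.521 ± 0.0701 in wild type (SD, n = 6 each, two-sided exact permutation p = 0.0693) and from 0.464 ± 0.109 to 0.514 ± 0.0882 in kinase dead (exact permutation p = 0.372). Adjusted over the 16 tests of 4 ratios in 4 comparisons, these were 0.531 and 0.662, so neither difference passed the threshold. With the reads of all 3 hairpins on both sides, the mean ratio was 0.423 in sedentary and 0.476 in trained wild type, and 0.442 and 0.468 in kinase dead.

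Ratios of other hairpins to miR-199a-5p had lower means in trained mice. The ratio of miR-199b-5p to miR-199a-5p, 5p arms of different genes, was 0.375, 0.431 and 0.701 in sedentary and 0.308, 0.410 and 0.466 in trained wild type. In kinase dead mice it was 0.323, 0.494 and 0.560 against 0.358, 0.382 and 0.446, and all 6 trained libraries lay below the sedentary median. The means were 0.479 and 0.399 (exact permutation p = 0.188) and 0.476 and 0.395 (exact permutation p = 0.0996), with adjusted values of 0.662 and 0.531. Neither difference passed the threshold.

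The ratio of miR-214-3p to miR-199a-5p was 0.0920, 0.110 and 0.173 in sedentary and 0.0746, 0.0895 and 0.113 in trained wild type. The kinase dead libraries had 0.0858, 0.110 and 0.126 against 0.0764, 0.0870 and 0.138. Exact permutation p-values were 0.0584 in wild type and 0.249 in kinase dead, or 0.531 and 0.662 after adjustment. In each genotype 5 of 6 trained libraries lay below the sedentary median.

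The arm ratio of miR-214 itself had no common direction in the genotypes. Reads of miR-214-3p outnumbered those of miR-214-5p by 5.33 ± 1.20 and 4.68 ± 0.377 times in sedentary and trained wild type, and by 4.74 ± 0.645 and 5.01 ± 1.33 times in kinase dead (SD, n = 6 each). The exact permutation p-values for training were 0.242 and 0.771. Between the genotypes no ratio of the 4 had an adjusted p below 0.662, by the same exact permutation test.

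**Figure D3:**
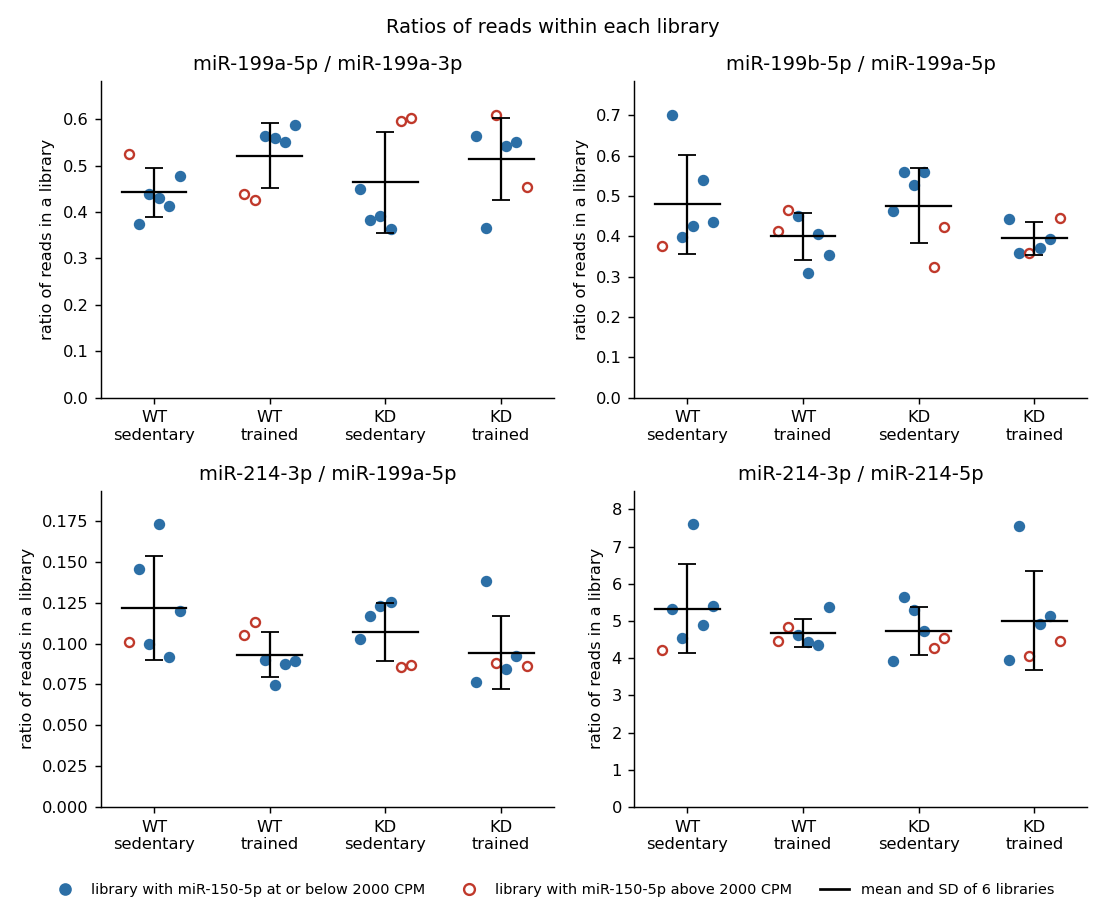
Ratios of reads within each library (vertical axes, from 0) for the 4 pairs of miRNAs, by group (WT, wild type; KD, kinase dead), with the mean and SD of 6 libraries in black and open red points for the 7 libraries with miR-150-5p above 2000 CPM. In the miR-199a panel the filled points of trained wild type lie between 0.552 and 0.587, above all filled points of sedentary wild type.

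Averaged over genotypes, a comparison added after the values had been seen, the ratios with miR-199a-5p had log2 differences with training of 0.20 for the arm ratio, -0.25 for miR-199b-5p over miR-199a-5p and -0.28 for miR-214-3p over miR-199a-5p. Two-sided exact permutation within each genotype (853776 splits) gave p = 0.0640, 0.0283 and 0.0253, or 0.107, 0.0708 and 0.0708 adjusted over 5 ratios. With the lymphocyte score as a covariate, a least squares fit of all 24 libraries gave 0.20, -0.25 and -0.28 as well. In the 17 libraries that were not lymphocyte-rich the differences were 0.37, -0.41 and -0.41, and the adjusted exact permutation p-values 0.00680, 0.00680 and 0.0156. All of these ratios hold the same miR-199a-5p count, so they are not separate results. For the levels in the 17 libraries, a least squares fit on log2 CPM gave averaged differences of 0.38 for miR-199a-5p and 0.007 for miR-199a-3p. It gave -0.025 for miR-199b-5p and -0.029 for miR-214-3p. The arm ratio of wild type then had 0.374 to 0.477 in the 5 sedentary and 0.552 to 0.587 in the 4 trained libraries, with no overlap. In kinase dead mice it had 0.364 to 0.449 in the 4 sedentary and 0.366 to 0.563 in the 4 trained libraries, where replicate 2 alone lay within the sedentary range.

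The 7 lymphocyte-rich libraries did not share this order. Their arm ratio was 0.526 in sedentary wild type and 0.597 and 0.602 in sedentary kinase dead, against 0.438 and 0.426 in trained wild type and 0.609 and 0.455 in trained kinase dead. All 3 sedentary values lay above 3 of the 4 trained ones, and no test was made on so few.

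A single library also decided the averaged result over all 24. The adjusted exact permutation p of the arm ratio fell to 0.0473 without sedentary kinase dead replicate 5, to 0.0449 without replicate 6 of that group and to 0.0464 without trained kinase dead replicate 2. The ratio of miR-214-3p to miR-199a-5p passed without any of the same 3 libraries (adjusted 0.0378, 0.0449 and 0.0164), and that of miR-199b-5p to miR-199a-5p without either of the first pair (0.0224 and 0.0449). The arm ratio over all 3 hairpins passed without trained kinase dead replicate 2 (0.0464).

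The arm ratio rose with the number of reads in a library. Over the 24 libraries its Pearson correlation with the log2 total was 0.62 (permutation p = 0.00153, adjusted 0.00964 over 63 relations) and Spearman's rho was 0.65 (permutation p = 0.00108, adjusted 0.00972). It was 0.58 without the 2 libraries farthest from the median total, 0.73 within the 17 libraries, 0.37 within the 7 and 0.55 on deviations from the group means. Of the arms themselves, miR-199a-5p had a correlation of 0.48 with the total (permutation p = 0.0179, adjusted 0.0593) and miR-199a-3p of -0.10. The ratio of miR-214-3p to miR-199a-5p had -0.54 with the total (permutation p = 0.00644, adjusted 0.0290) and a rho of -0.48 (adjusted permutation p = 0.0682). It had -0.31 without the 2 farthest libraries and -0.61 within the 17. For miR-199b-5p over miR-199a-5p the correlation was -0.22. With the log2 total as a covariate, the averaged training difference of the arm ratio went from 0.20 to 0.09 over 24 libraries and from 0.37 to 0.26 over the 17. That of miR-214-3p over miR-199a-5p went from -0.28 to -0.18 over 24 and from -0.41 to -0.28 over the 17, and that of miR-199b-5p over miR-199a-5p from -0.25 to -0.23 and from -0.41 to -0.43. The arm ratio pooled over the 3 miR-199 hairpins went from 0.12 to 0.018 over 24 libraries.

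**Figure D4:**
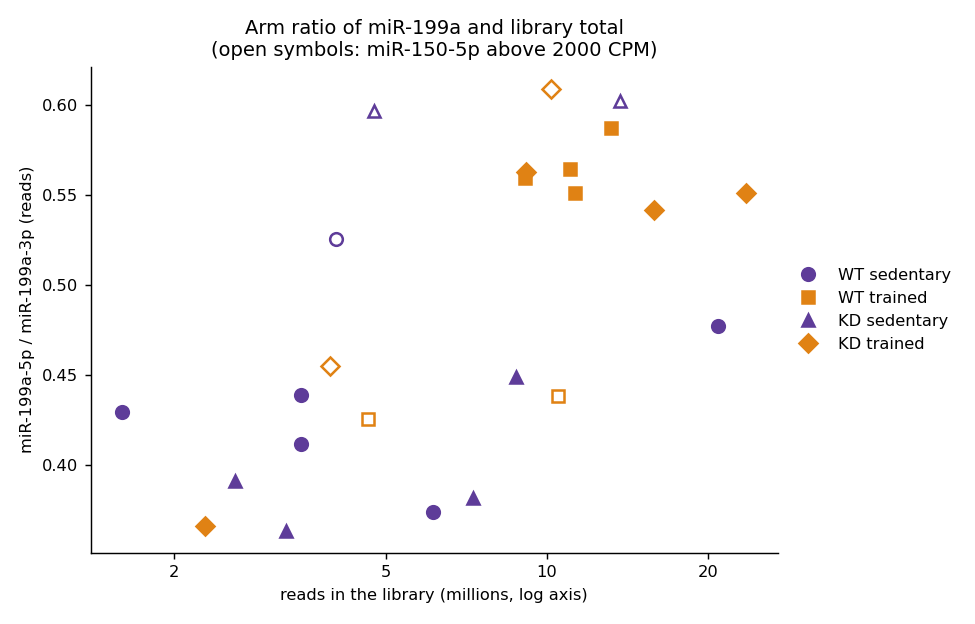
Arm ratio of miR-199a (vertical axis, reads of the 5p arm over reads of the 3p arm, which does not start at 0) against reads in the library (horizontal log axis, M reads), 1 symbol per library, purple for sedentary and orange for trained, with open symbols for the 7 lymphocyte-rich libraries. The ratio was higher in larger libraries (Pearson r 0.62 over 24), and most trained libraries lie at the right.

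Covariation of the members was read within the 2 sets of libraries and over all 24. Among the 17 libraries that were not lymphocyte-rich, the Pearson correlation of log2 CPM was 0.51 between miR-199a-3p and miR-214-3p and 0.42 between miR-199a-3p and miR-199b-5p. It was 0.28 between miR-199a-5p and miR-199b-5p, 0.15 between the arms of miR-199a, 0.15 between miR-199b-5p and miR-214-3p, and 0.02 between miR-199a-5p and miR-214-3p. None of the 6 passed after adjustment (lowest adjusted permutation p = 0.201), and Spearman's rho lay between 0.10 and 0.56 with a lowest adjusted p of 0.127.

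Within the 7 lymphocyte-rich libraries the same pairs had correlations of 0.41, 0.78, 0.67, 0.20, 0.70 and 0.56, and none passed by an exact permutation test (lowest adjusted p = 0.206). Over all 24 libraries, where both sets are joined, the values were 0.78, 0.77, 0.61, 0.55, 0.60 and 0.46. Spearman's rho lay between 0.55 and 0.82, and without the 2 libraries farthest from the median Pearson's r lay between 0.44 and 0.72. All 6 had an adjusted permutation p of 0.0253 or less over 24 libraries, and none passed within either set, where fewer libraries entered. Within the 17 libraries all 6 correlations were also lower than over the 24. Within the 7 libraries the correlations of miR-199b-5p with the other 3 members and of miR-199a-5p with miR-214-3p were at least as high as over the 24. For comparison, pairs among the 358 miRNAs of at least 10 CPM had a median correlation of 0.0027 and a 90th percentile of 0.52 on deviations from the group means, a scale on which the pairs of members had 0.55 to 0.78 over the 24 libraries.

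**Figure D5:**
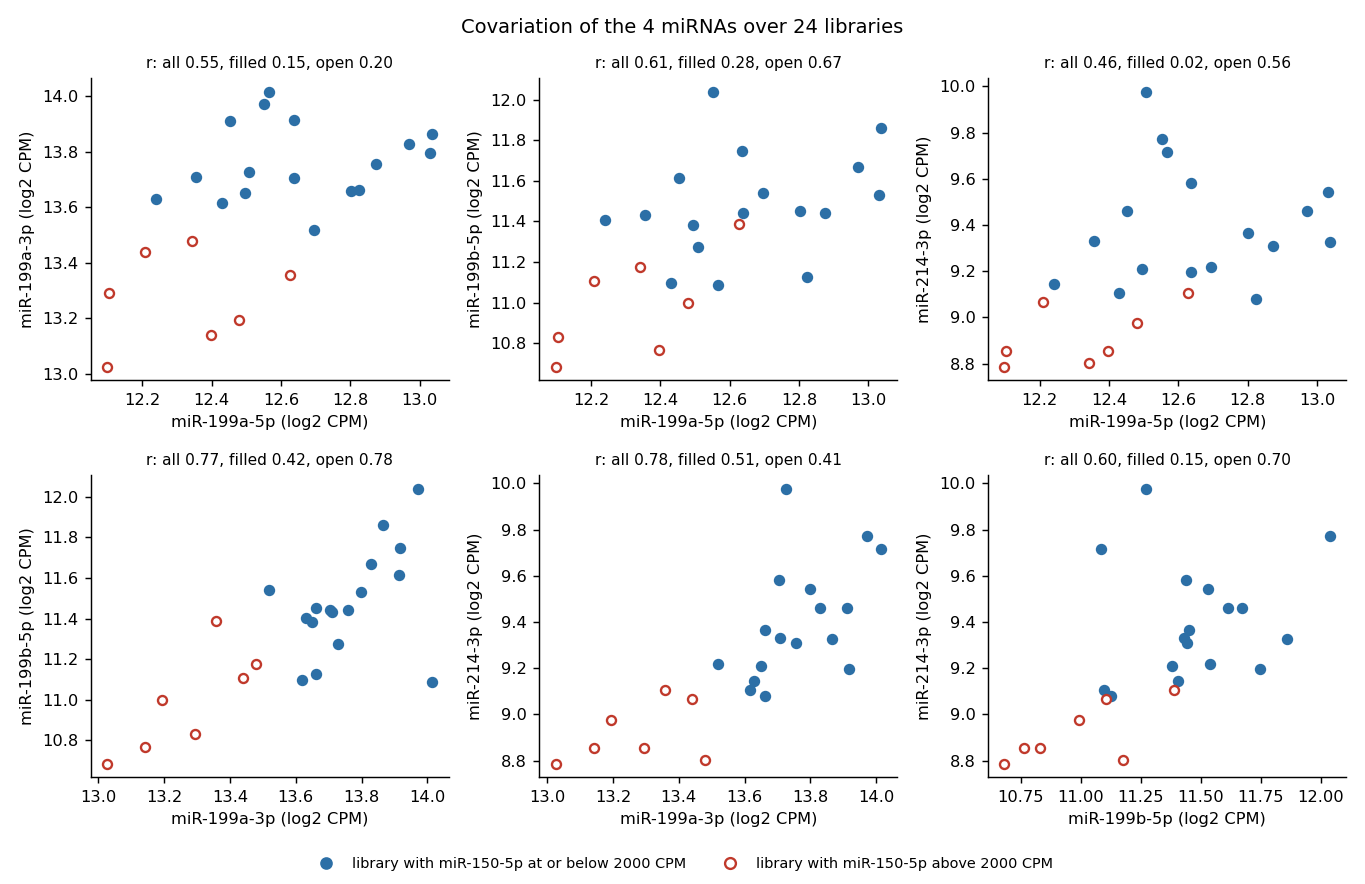
Log2 CPM of each pair of the 4 miRNAs, 1 point per library, with open red points for the 7 libraries with miR-150-5p above 2000 CPM and Pearson's r over all, filled and open points above each panel. The open points lie toward the lower left of each panel, and among the filled points r ranges from 0.02 to 0.51.

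Levels of the stromal list were set beside those of the members. The score of the 21 fibroblast and mesenchyme miRNAs, their mean log2 CPM, had a correlation of 0.86 with miR-199a-3p, 0.76 with miR-214-3p, 0.74 with miR-199b-5p and 0.41 with miR-199a-5p over 24 libraries. Within the 17 libraries the values were 0.33, 0.35, 0.37 and -0.50, and within the 7 they were 0.56, 0.76, 0.60 and 0.14. The score of the 4 lymphocyte miRNAs had -0.83, -0.72, -0.63 and -0.62 over 24 libraries in the same order of members, and 0.07, -0.08, 0.38 and -0.44 within the 17. All miRNAs of a library share its scaling, so these correlations describe the libraries. They belong to the 63 relations over which p-values were adjusted, and their own p-values are left out here.

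None of the 21 fibroblast and mesenchyme miRNAs passed the threshold in any of the 6 comparisons (0% of all 582 did). With training, 10 were higher and 11 lower in wild type, with a median log2 difference of -0.02 against 0.01 over all 582, and 6 were higher and 15 lower in kinase dead, with a median of -0.12 against 0.01. The 1 with an unadjusted p under 0.05 was miR-335-5p, a miRNA of the imprinted gene Mest, at -0.65 for averaged training (SE 0.27, adjusted p = 0.718, edgeR), named after its value was seen. Of 15 miRNAs listed for fibrosis, 9 were higher and 6 lower with training in wild type and 4 higher and 11 lower in kinase dead, and none passed. At an unadjusted p under 0.05 stood miR-192-5p at 0.30 in wild type and 0.20 averaged, miR-30c-5p at 0.22 averaged, and miR-133a-1-3p, a muscle miRNA, at -1.44 for genotype in trained mice, also named after their values were seen.

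Markers of other cells in the fat pad were read beside the members, and none passed the threshold in any comparison. The summed level of 6 striated muscle miRNAs ranged from 455 to 8489 CPM over the libraries, with group medians of 1528 in sedentary and 3710 in trained wild type and 804 and 1170 in kinase dead. With the muscle score as a covariate the averaged difference of miR-199a-5p was 0.17 (SE 0.12, adjusted p = 0.599, edgeR). Summed levels ranged from 1125 to 8253 CPM for 3 red blood cell miRNAs, 13748 to 27607 for 7 of epithelium, 29878 to 75589 for 2 of endothelium, 194 to 321 for 2 of myeloid cells and 72372 to 127901 for 9 of adipocytes. Medians of the list's log2 differences for averaged training were -0.09 for muscle, -0.19 for red blood cells, -0.01 for epithelium, 0.01 for endothelium, -0.18 for myeloid cells, 0.06 for adipocytes and 0.07 for lymphocytes, against 0.01 over all 582. Such averages join genotypes that can differ in sign. In wild type and kinase dead apart, the medians were 0.59 and -0.76 for muscle and -0.74 and 0.42 for red blood cells. For lymphocytes they were 0.30 and -0.14, for epithelium -0.17 and 0.12, and for endothelium 0.10 and -0.08. Myeloid cells had -0.16 and -0.20, and adipocytes -0.01 and 0.08.

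Of these scores those of the myeloid miR-223 arms and of the fibroblast and mesenchymal miRNAs had correlations with ratios that passed the threshold after adjustment. Over 24 libraries the Pearson correlation of the myeloid score was -0.56 with the arm ratio of miR-199a (rho -0.52, permutation p = 0.00528, adjusted 0.0256) and 0.63 with miR-199b-5p over miR-199a-5p (rho 0.62, permutation p = 0.000930, adjusted 0.00732). Without the 2 farthest libraries the values were -0.42 and 0.56, and within the 17 libraries -0.59 and 0.62. The fibroblast and mesenchymal score, which leaves out the members, had a correlation of 0.51 with miR-199b-5p over miR-199a-5p (permutation p = 0.0118, adjusted 0.0465), with a rho of 0.57 (adjusted 0.0236), and of 0.41 without the 2 farthest libraries and 0.72 within the 17. With the arm ratio it had -0.46 (adjusted permutation p = 0.0696) and a rho of -0.53 (adjusted 0.0408), with -0.39 without the 2 farthest libraries and -0.64 within the 17. The adipocyte score had -0.45 with the arm ratio over 24 libraries (adjusted permutation p = 0.0698) and -0.14 within the 17. That of endothelium had 0.44 with miR-199b-5p over miR-199a-5p (adjusted permutation p = 0.0793) and 0.29 within the 17. The lymphocyte score had a correlation with miR-199b-5p over miR-199a-5p of -0.16 over 24 libraries and 0.67 within the 17. The part of these cells in the ratios was not tested.

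The miRNAs most like the 4 members, by the mean Pearson correlation of log2 CPM on deviations from the group means over 24 libraries, were named by rank. After miR-199b-3p, whose sequence is that of a member, they were miR-379-5p (0.76), miR-411-3p (0.75), miR-541-5p (0.73) and miR-134-5p (0.73), all on chromosome 12, and miR-125b-2-3p (0.71) on chromosome 16, out of 354 miRNAs of at least 10 CPM. Of the 25 highest ranked, 11 (44%) lie on chromosome 12, as do 44 of the 354 (12.4%). The 4 of chromosome 12 named above lie within the imprinted Dlk1-Dio3 region, which holds a large miRNA cluster. Members of several lists stood among the 25 from other chromosomes, named after their values were seen. They were miR-200c-3p (rank 7) and miR-200b-3p (rank 18) of epithelium and miR-103-3p (rank 14) of adipocytes. miR-152-3p (rank 21) of the fibroblast list and miR-132-3p (rank 12) of the fibrosis list also stood there. From chromosome 12, miR-379-5p (rank 2), miR-411-5p (rank 9), miR-382-5p (rank 15) and miR-127-3p (rank 23) are on the fibroblast list too. They therefore enter the fibroblast and mesenchymal score, and the rest of that list did not stand among the 25. Within the 17 libraries miR-379-5p had the highest mean correlation of the 354 (0.57). miR-411-3p ranked 10, miR-541-5p 12 and miR-134-5p 31, with 0.44, 0.43 and 0.35, and miR-125b-2-3p ranked 167 with 0.05. High in that ranking, and named after their values were seen, were miR-146b-5p (rank 3, 0.54), miR-181a-1-3p (rank 5, 0.51) and let-7i-5p (rank 6, 0.49), which ranked 85, 267 and 241 over all libraries. Of the first 12 within the 17 libraries 4 lie on chromosome 12. miR-379-5p stood at 483 ± 161 CPM (SD, n = 24).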

How the data were processed

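The values the authors deposited are raw read counts, 1 row per locus of a mature miRNA and 1 column per library. Per the labels' protocols, TRIzol served for extraction and a NEBNext small RNA kit for library preparation. The tools and the build, CASAVA 1.8.2, Trim Galore, Bowtie2, featureCounts and mm10, are given per the submitters' processing notes, and settings for strand and multiple mapping are not given.

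The 2045 loci were summed to 1907 mature miRNAs, named by coordinates from RefSeq (1670 loci) or from hairpin and arm in GENCODE (375). edgeR 4.0.16 (R 4.3.3) was fitted to all 24 libraries in 4 groups, with TMM factors. filterByExpr kept 582 miRNAs, and the 1325 below it held 0.0150% of reads. Levels are CPM scaled by TMM. log2 CPM used a prior count of 2. DESeq2 1.42.0 was an alternative. The test was tried on simulated counts. Ratios of reads were tested by exact permutation (924 splits) and correlations with 100000 permutations, or exactly for 7 libraries.

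Named beyond the members are their partner arms, miRNAs sharing a seed, and the 5 others of at least 10 CPM with the highest mean correlation. Of 9 marker lists, all names matched except miR-486a-5p. The members and lists were chosen with earlier results of these data known.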

Additional observations from a re-analysis of the deposited data

Results flagged for a closer look

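In groups of 6 libraries, a library was marked when its gap to the nearest other exceeded Dixon's 95% critical value (0.625 of the range). Of 32 groups of values tested 4 were marked, and chance marks about 1 in 20. The ratio of miR-214-3p to miR-214-5p was 7.60 in sedentary wild type replicate 4, where the next library had 5.40, and 7.56 in trained kinase dead replicate 2, where the next had 5.13. In that same trained kinase dead library the ratio of miR-214-3p to miR-199a-5p was 0.138, and the next was 0.0923. These 2 libraries are the smallest of all 24, with 1.60 and 2.29 M reads. Their miR-214 ratios rest on 1717 reads of the 3p and 226 of the 5p arm, and on 1799 and 238, with 95% intervals (exact Clopper-Pearson, counting error only) of 6.61 to 8.77 and 6.60 to 8.69. miR-199b-5p stood at 1742 CPM in sedentary kinase dead replicate 5, a lymphocyte-rich library, and the next had 2666 CPM.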

How the results depend on the processing

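No paired analysis was possible because the replicate numbers follow accession order and the labels carry none. The count of miRNAs called was 0 in all 6 comparisons under every alternative run. Of 358 values under alternatives other than leaving out 1 library, 326 kept direction and side of the threshold.

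Values that changed sign were all small. miR-199b-5p for training in kinase dead was -0.0086 with copies as separate features, -0.0038 without the lymphocyte-rich libraries, and -0.024, -0.042 and -0.043 with the lymphocyte score, muscle score and log2 total as covariates. miR-199a-3p for averaged training was -0.00090 with RLE factors, -0.00089 in DESeq2, -0.023 with copies separate, -0.00026 with miR-199b-3p added and -0.085 with the muscle score. For genotype in sedentary mice, miR-199a-5p was 0.026 without a filter, 0.018 with the lymphocyte score and 0.0031 with the muscle score, and miR-199b-5p 0.042 with the muscle score. Without the lymphocyte-rich libraries, genotype in trained mice gave -0.12 for miR-199a-5p, -0.053 for miR-199b-5p and 0.053 for miR-199b-5p over miR-199a-5p, and genotype in sedentary mice gave -0.10 for the arm ratio and 0.10 for miR-199b-5p over miR-199a-5p. The cause was not tested.

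Within the 17 and the 7 libraries the correlations no longer passed, where fewer libraries entered: 0.15 and 0.20 for miR-199a-5p with miR-199a-3p, 0.28 and 0.67 with miR-199b-5p, 0.019 and 0.56 with miR-214-3p, 0.42 and 0.78 for miR-199a-3p with miR-199b-5p, 0.51 and 0.41 with miR-214-3p, and 0.15 and 0.70 for miR-199b-5p with miR-214-3p. In the 17 each correlation was also lower than over all 24 libraries, and the cause was not tested. Without the lymphocyte-rich libraries the averaged arm ratio, at 0.37, passed.

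Leaving out each library in turn gave these ranges where a sign or a call changed. Training in wild type: miR-199b-5p -0.22 to 0.047. Training in kinase dead: miR-199a-3p -0.047 to 0.18, miR-199b-5p -0.15 to 0.091, miR-214-3p -0.048 to 0.14, miR-214-3p over miR-214-5p -0.069 to 0.12. Averaged training: miR-199a-3p -0.083 to 0.048, arm ratio of miR-199a 0.16 to 0.24 (passing in 3 of 24), miR-199b-5p over miR-199a-5p -0.30 to -0.19 (passing in 2), miR-214-3p over miR-199a-5p -0.33 to -0.22 (passing in 3), arm ratio over all 3 hairpins 0.098 to 0.17 (passing in 1), miR-214-3p over miR-214-5p -0.12 to 1.7e-05. Interaction: miR-199a-5p -0.088 to 0.15, miR-199b-5p -0.11 to 0.20. Genotype in sedentary mice: miR-199a-5p -0.067 to 0.072, miR-199a-3p -0.15 to 0.040, miR-199b-5p -0.12 to 0.14, arm ratio of miR-199a -0.037 to 0.11, miR-199b-5p over miR-199a-5p -0.064 to 0.12. Genotype in trained mice: miR-199a-5p -0.070 to 0.13, miR-199b-5p -0.050 to 0.12, miR-214-3p -0.016 to 0.16, arm ratio of miR-199a -0.083 to 0.067, miR-199b-5p over miR-199a-5p -0.082 to 0.037, miR-214-3p over miR-199a-5p -0.12 to 0.059, miR-214-3p over miR-214-5p -0.059 to 0.13. In the 2 smallest libraries the 5p arm of miR-214 had 226 and 238 reads. The 95% counting intervals of their arm ratios, 6.61 to 8.77 and 6.60 to 8.69, lay above the next libraries of their groups, at 5.40 and 5.13. The part of depth in these ratios was not tested.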
